A study of Mus musculus with 9 samples.

Results

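The mature 3p miRNAs of the miR-23a/27a/24 and miR-23b/27b/24 clusters were followed in mouse liver: mmu-miR-23a-3p, mmu-miR-27a-3p, mmu-miR-24-3p, mmu-miR-23b-3p and mmu-miR-27b-3p. They were selected by name in the scanner files and make up 5 of the 1881 mouse miRNAs on the array. All 5 passed the detection filter and were among the 143 miRNAs tested. Each was detected by the scanner software on all 9 arrays. Below, the species prefix mmu is left off the names.

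Liver miRNA had been measured on 9 one-colour Agilent arrays, 3 in each of 3 groups of male mice of the inbred strain C57BL/6J, aged 20 weeks. The metformin group ate a high fat diet, with 45% of its energy from fat, for 17 weeks and received metformin, a glucose-lowering drug, at 3 mg/kg/day by stomach tube in the last 5 of them. Mice of the high fat diet group ate the same food for the same time and received saline by the same route over those weeks. The control group ate normal chow for 17 weeks, and no vehicle is stated for it. Each array held RNA from a pool of 4 livers, so errors and p-values describe pools and say nothing of single mice. The design asks what the diet does to liver miRNAs and what metformin adds to it.

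The clusters are paralogs: each is transcribed as 1 primary RNA that is cut into 3 hairpins, and each hairpin yields mature miRNAs that guide repression of mRNAs matching their seed, bases 2 to 8. miR-27 represses adipocyte differentiation in cultured human and mouse cells, partly through Pparg, and miR-27b was described in human and mouse liver cells as a regulator of several lipid genes. In mouse liver, miR-24 was described as a repressor of Insig1, which holds back the maturation of the lipogenic factor SREBP. miR-23a and miR-23b repress glutaminase in human tumour cells, and the miR-23b cluster represses Smads of the TGF-beta pathway in mouse fetal liver cells.

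The mature sequences were taken from RefSeq (GRCm38.p6), which held 4 of the 5 members and lacked miR-23b-3p. They are shown because their seeds divide the members into families; capitals mark the seed.
miR-23a-3p: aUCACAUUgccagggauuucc
miR-27a-3p: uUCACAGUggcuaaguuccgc
miR-27b-3p: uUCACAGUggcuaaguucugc
miR-24-3p: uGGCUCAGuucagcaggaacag
The seeds of miR-27a-3p and miR-27b-3p were identical, and no other mature miRNA of the table carried that seed or that of miR-23a-3p. Since miR-23b-3p had no entry there, its seed was not compared with that of miR-23a-3p. The seed of miR-24-3p was shared by 4 other entries of the table, miR-5124b, miR-6369, miR-6410 and miR-6413.

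Across all 21 bases miR-27a-3p and miR-27b-3p differed by 1 substitution, C19U, counted from the 5′ end with the base of miR-27a-3p first. Capitals mark it here, since it is the only base by which a probe could tell these paralogs apart.
miR-27a-3p: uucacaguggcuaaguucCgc
miR-27b-3p: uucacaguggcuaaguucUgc
Hybridization of either RNA to the other's probe was not tested, and the files at hand hold no probe sequences.

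The hairpins Mir23a, Mir27a and Mir24-2 lay within 404 bases on the plus strand of chromosome 8, and neither Mir23a nor Mir27a overlapped another gene of the table. The hairpins Mir23b, Mir27b and Mir24-1 lay within 792 bases on the plus strand of chromosome 13, inside the protein-coding gene Aopep. Both Mir24 hairpins also overlapped a Mir3074 entry. They are printed because the mature miR-24-3p, in capitals, is the same in both, so that its level on the array joins the output of both clusters.
Mir24-2, chr8:84208815-84208921: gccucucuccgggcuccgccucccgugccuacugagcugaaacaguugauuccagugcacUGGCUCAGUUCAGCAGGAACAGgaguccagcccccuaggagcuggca
Mir24-1, chr13:63301208-63301275: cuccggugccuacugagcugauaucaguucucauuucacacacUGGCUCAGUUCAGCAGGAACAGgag

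Where a spot lay on the array bore strongly on its signal. On 6 of the 9 arrays, strips of columns at an edge gave little or no signal, and they covered 31.1% to 53.6% of all spots on those arrays. The arrays without strips were metformin replicates 1 and 3 and high fat diet replicate 2. All control arrays had strips. Of the 675 spots of the members' main probes, 173 lay in strips, and 140 of these (80.9%) were below 50% of the probe's median outside the strips. Their median was 5.47% of it. Outside the strips only 3 of 502 spots (0.598%) were that low. Levels given here therefore leave the strips out, and values over all spots stand beside them where directions differ.

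**Figure D1:**
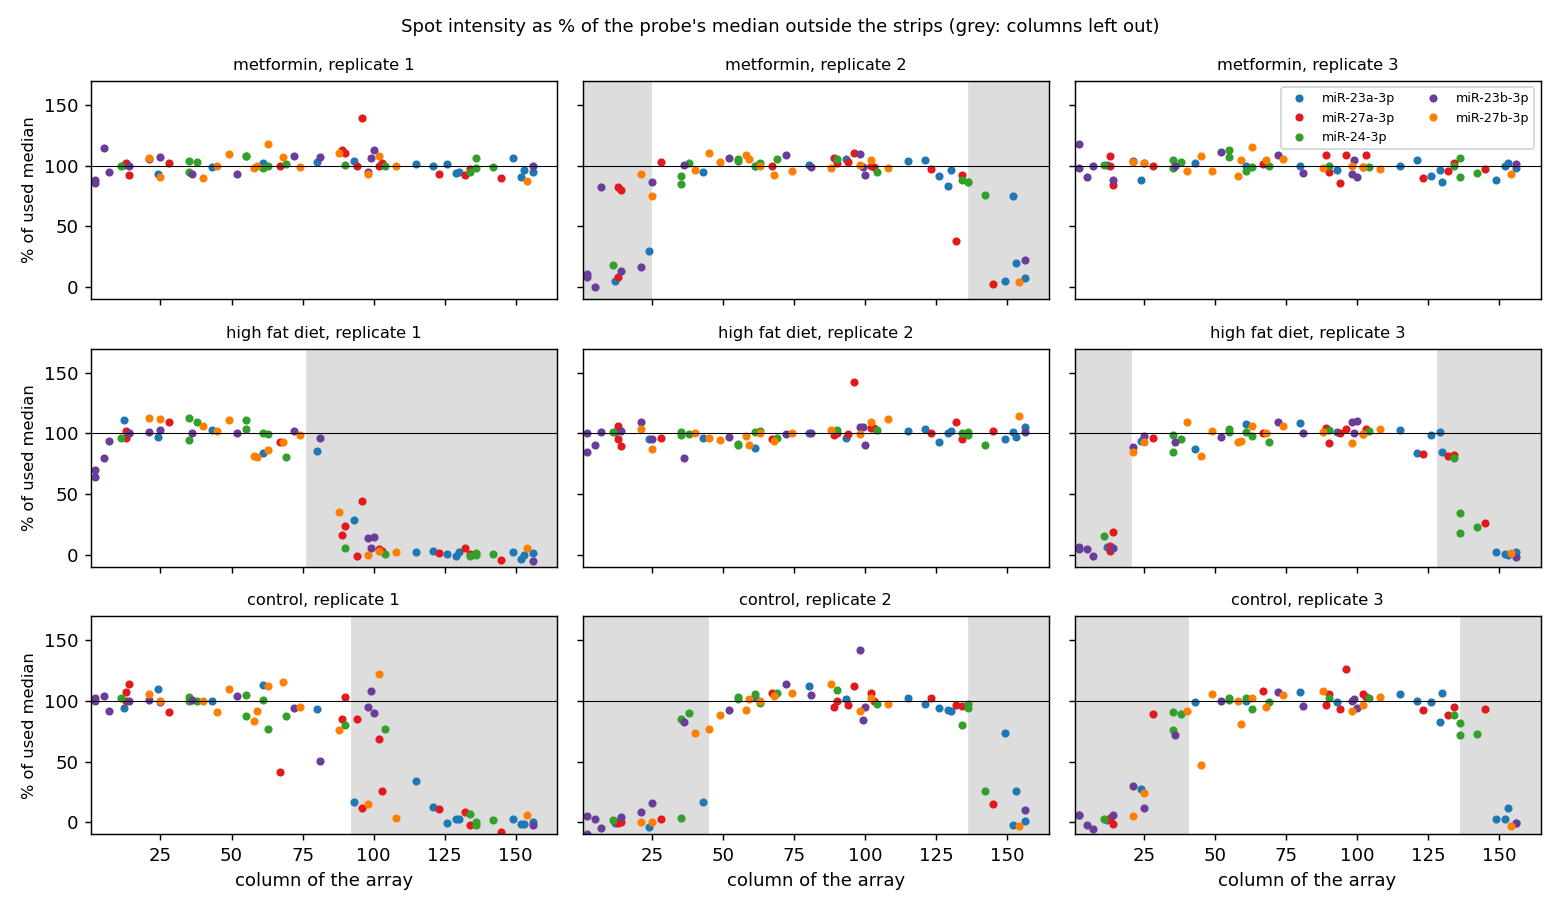
Spots of the main probes of the 5 miRNAs on each array, as a percent of the probe's median outside the strips (vertical axis), against the column of the array (horizontal axis). Grey marks the columns left out; 140 of the 173 spots in grey lie under 50%, against 3 of the 502 spots outside.

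A level is the log2 of the median spot intensity of the miRNA's main probe, relative to the 75th percentile, on the same array, of the 187 probes detected on every array. Levels of different miRNAs come from different probes and are not ranked against each other. All members moved little: the highest and the lowest of the 9 arrays lay 1.21-fold apart for miR-23a-3p, 1.41-fold for miR-27a-3p, 1.24-fold for miR-24-3p, 1.26-fold for miR-23b-3p and 1.28-fold for miR-27b-3p. The main probes rested on at least 4 spots for miR-23a-3p, 5 for miR-27a-3p, 6 for miR-23b-3p, 9 for miR-24-3p and 10 for miR-27b-3p on every array.

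From the cluster on chromosome 8, miR-23a-3p stood at -1.08, -1.09 and -0.93 in metformin livers, at -1.003, -0.95 and -0.87 in high fat diet livers, and at -1.13, -1.15 and -1.06 in control livers. All high fat diet pools were above all control pools, and the metformin pools overlapped both groups. Its neighbour miR-27a-3p had levels of -2.13, -1.94 and -1.83 in metformin livers, -1.69, -1.71 and -1.64 in high fat diet livers, and -1.98, -1.80 and -1.76 in control livers. The high fat diet pools were the 3 highest, above every metformin pool and every control pool, and metformin replicate 1 was the lowest.

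For miR-24-3p, which both clusters make, levels were -0.46, -0.44 and -0.33 in metformin livers, -0.43, -0.32 and -0.38 in high fat diet livers, and -0.53, -0.64 and -0.49 in control livers. The control pools were the 3 lowest, and the pools on high fat diet with and without metformin overlapped.

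From the cluster on chromosome 13, miR-23b-3p had levels of -2.55, -2.76 and -2.49 in metformin livers, -2.45, -2.43 and -2.55 in high fat diet livers, and -2.64, -2.76 and -2.50 in control livers. Its groups overlapped in every pairing. The level of miR-27b-3p was -1.86, -1.88 and -1.74 in metformin livers, -1.71, -1.71 and -1.80 in high fat diet livers, and -2.06, -1.92 and -1.79 in control livers. Its groups also overlapped in every pairing: metformin replicate 3 and control replicate 3 both lay within the range of the high fat diet pools.

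**Figure D2:**
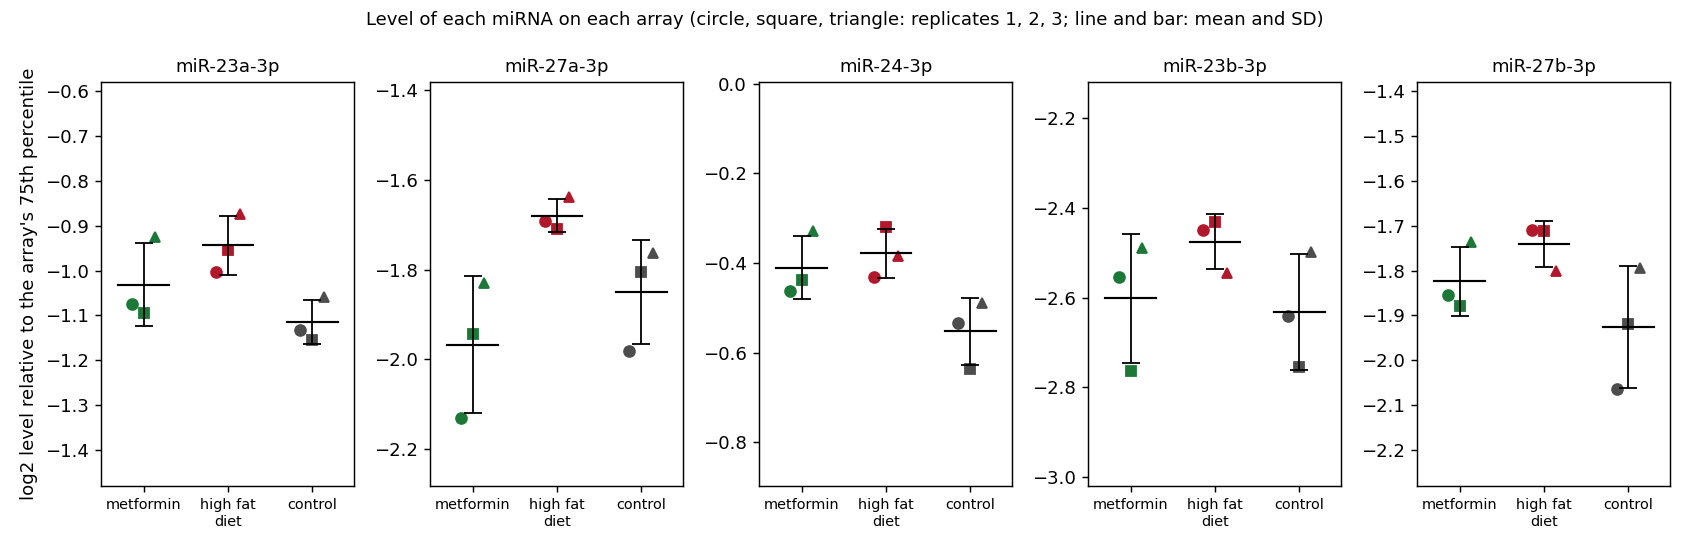
Level of each miRNA on each array (vertical axis, log2 relative to the array's 75th percentile, 1 scale per panel) in metformin, high fat diet and control livers; circles, squares and triangles are replicates 1, 2 and 3, the line is the mean and the bar the SD (n = 3). For miR-27a-3p the high fat diet pools, between -1.71 and -1.64, lie above all pools of both other groups.

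In group means, metformin livers were lower than high fat diet livers for all 5 miRNAs, by small amounts. miR-27a-3p had the largest of these differences: it averaged -1.97 ± 0.15 in metformin livers and -1.68 ± 0.04 in high fat diet livers (SD, n = 3 each). This is a log2 difference of -0.29 (SE 0.10, 95% interval -0.51 to -0.06), or 1.22-fold lower with metformin in the group means. By unequal amounts, 3 of 3 metformin pools were below every high fat diet pool. By limma the p of this difference was 0.0172 before and 0.307 after Benjamini-Hochberg adjustment over the 143 miRNAs, so miR-27a-3p did not pass the threshold of 0.05. Among those miRNAs it ranked 8 by p, and 7 others had more negative differences. Other scalings and another background correction left it negative but smaller: it was -0.12 under quantile normalization, -0.15 when arrays were scaled to the median of detected probes, -0.15 with normexp, and -0.017 when scaled to the 75th percentile of all probes.

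The other members gave smaller differences between metformin and high fat diet livers. They were -0.09 for miR-23a-3p, -0.03 for miR-24-3p, -0.13 for miR-23b-3p and -0.08 for miR-27b-3p, with limma adjusted p between 0.661 and 0.896. The count past the threshold was 0 of 5, where 1.4% of all tested miRNAs passed. At an unadjusted p under 0.05 it was 1 of 5, against 9.09% of all. Groups did not overlap for 1 of 5, against 20.3% of all. Differences were below 0 for 5 of 5, as they were for 62.9% of all tested miRNAs. The members' median was -0.09 and that of all miRNAs -0.06. Over the members, the 95% intervals ran from 0.70-fold to 1.12-fold of the high fat diet level.

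Against control livers, metformin livers were higher for 4 members and lower for miR-27a-3p, and again none passed the test. miR-24-3p averaged -0.41 ± 0.07 in metformin livers and -0.55 ± 0.08 in control livers (SD, n = 3 each). Its log2 difference was 0.14 (SE 0.085, limma adjusted p = 0.347), with every metformin pool above every control pool. The remaining differences were 0.08 for miR-23a-3p, 0.03 for miR-23b-3p, 0.10 for miR-27b-3p and -0.12 for miR-27a-3p, with limma adjusted p between 0.514 and 0.880. The count called was 0 of 5, against 1.4% of all tested miRNAs, and at an unadjusted p under 0.05 it was 0 of 5, against 21% of all. Groups were apart for 1 of 5, against 25.9%, and differences were above 0 for 4 of 5, against 49.7%. The median was 0.08 for the members and -0.00 for all miRNAs.

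High fat diet livers were above control livers for all 5 members, by 1.11-fold to 1.14-fold. The log2 differences were 0.17 for miR-23a-3p, miR-27a-3p and miR-24-3p, 0.16 for miR-23b-3p and 0.19 for miR-27b-3p, with SE from 0.085 to 0.10. None passed the test: limma adjusted p lay between 0.173 and 0.280, and the count called was 0 of 5, against 14% of all tested miRNAs. At an unadjusted p under 0.05 the count was also 0 of 5, against 35.7% of all. Groups did not overlap for 3 of 5 (miR-23a-3p, miR-27a-3p and miR-24-3p), against 37.1% of all miRNAs. Differences were above 0 for 5 of 5, against 54.5%, and the median was 0.17 for the members and 0.03 for all, whose differences had an SD of 0.30. The 95% intervals over the members ran from 0.95-fold to 1.32-fold of the control level. With 1 replicate left out at a time, the differences moved both ways. They ran from 0.14 to 0.26 for miR-23a-3p, 0.15 to 0.21 for miR-27a-3p and 0.15 to 0.28 for miR-24-3p. For miR-23b-3p they ran from 0.11 to 0.25, and for miR-27b-3p from 0.18 to 0.25. The highest values of miR-23a-3p, miR-24-3p and miR-23b-3p came without control replicate 1, and that of miR-27b-3p without control replicate 3. With normexp background correction the differences ran from -0.11 for miR-23b-3p to 0.11 for miR-24-3p, with miR-27a-3p at 0.0014. Each group enters 2 of the 3 comparisons, so the comparisons are not independent.

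The reading over all spots gave other directions. Between metformin and high fat diet livers the members' log2 differences were above 0 for 5 of 5, against 81.3% of all tested miRNAs, from 0.03 for miR-27b-3p to 0.52 for miR-23b-3p, and that of miR-27a-3p was 0.18. Between high fat diet and control livers, 4 of 5 were below 0, against 73.4% of all, from -0.17 for miR-27b-3p to -0.30 for miR-23b-3p, and only miR-23a-3p was above, at 0.06. Standard errors were 0.16 to 0.37 there, and 0 members were called in any comparison, against 0%, 0% and 6.47% of all 139 miRNAs tested by limma. At an unadjusted p under 0.05 the count of members was also 0 in each, against 10.8%, 10.8% and 23% of all. The median of all miRNAs also moved, to 0.16 between metformin and high fat diet livers and to -0.22 between high fat diet and control livers. For miR-23b-3p this reading used the other of its 2 probes.

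**Figure D3:**
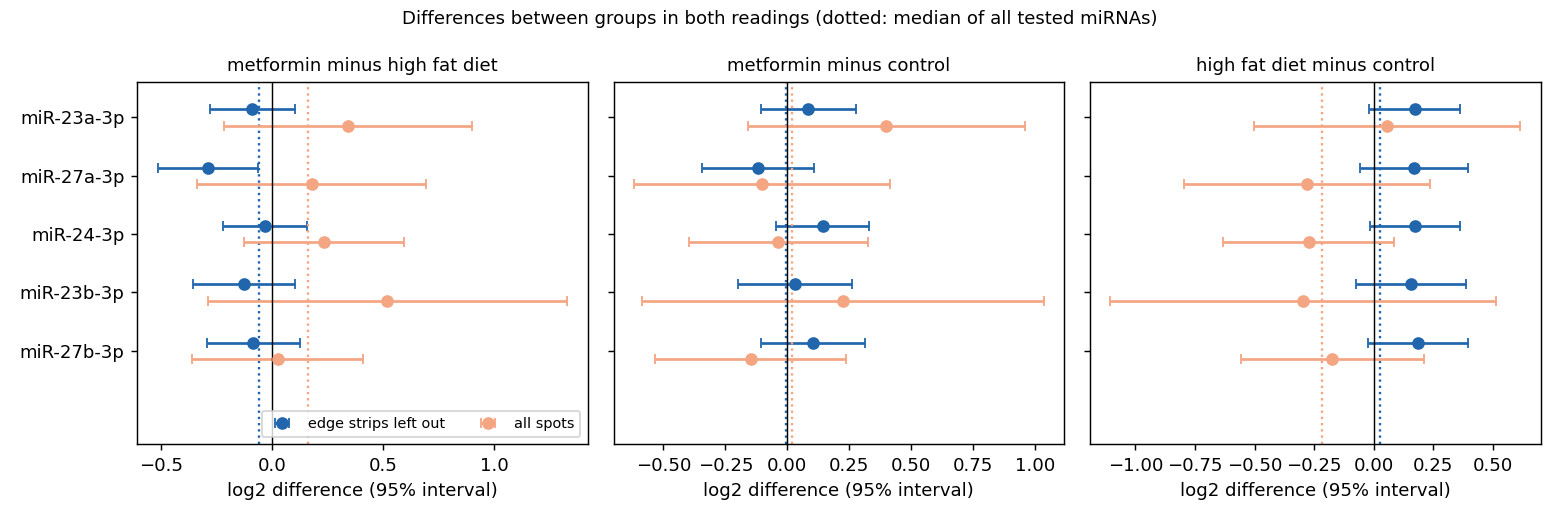
Log2 difference between groups (horizontal axis, with 95% intervals) for each miRNA, with the edge strips left out (blue) and over all spots (orange); dotted lines mark the median of all tested miRNAs in each reading. With the strips left out, the interval of miR-27a-3p between metformin and high fat diet livers ends at -0.06 and the other intervals include 0; over all spots every interval includes 0.

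The arrays lay on 2 slides, and groups were not spread evenly over them. Row 1 of slide 1 held the 3 high fat diet arrays and metformin replicate 1, row 2 held metformin replicates 2 and 3 with control replicates 1 and 2, and control replicate 3 was alone on slide 2. Within row 1, metformin replicate 1 was below the mean of the high fat diet arrays for 5 of 5 members, by -0.45 for miR-27a-3p and by -0.13 to -0.08 for the others. Within row 2 metformin was above control for 5 of 5, by 0.01 for miR-27a-3p and by 0.07 to 0.20 for the others. All tested miRNAs moved the same way in the median, by -0.06 in row 1 and 0.06 in row 2. The members' medians were -0.11 and 0.13. No row held both high fat diet and control arrays, so there is no within-row value of the diet difference, and a fit with row as a block takes the row effect from the metformin arrays alone. That fit used slide 1 only, so control replicate 3 was left out. In it the difference between high fat diet and control livers was 0.46 for miR-27a-3p (limma adjusted p = 0.208), 0.30 for miR-27b-3p, 0.29 for miR-24-3p, 0.26 for miR-23a-3p and 0.15 for miR-23b-3p. No member was called, and of all 143 tested miRNAs 0 were called in this comparison. Without metformin replicate 1, the difference of miR-27a-3p between metformin and control livers was -0.04 in place of -0.12.

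Paralogs were compared within each array, where scaling cancels. The probe difference miR-27a-3p minus miR-27b-3p was -0.28, -0.06 and -0.09 in metformin livers, 0.02, 0.00 and 0.16 in high fat diet livers, and 0.08, 0.12 and 0.03 in control livers. All metformin pools were below all pools of both other groups. The sign of the difference itself depends on the probes. Between metformin and high fat diet livers the difference changed by -0.21, and between metformin and control livers by -0.22. The exact two-sided permutation p was 0.1 in both, the smallest that 3 against 3 arrays allow, and 0.3 after adjustment over the 6 paralog tests. Between high fat diet and control livers it changed by -0.02 (exact permutation p = 0.8). Over all spots the changes against both groups were positive, 0.15 between metformin and high fat diet livers and 0.05 between metformin and control livers.

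For the other pair, miR-23a-3p minus miR-23b-3p averaged 1.57 ± 0.10 in metformin livers, 1.53 ± 0.12 in high fat diet livers and 1.52 ± 0.08 in control livers (SD, n = 3 each). These within-array differences, whose own size depends on the probes, moved by 0.04 between metformin and high fat diet livers, by 0.05 between metformin and control livers and by 0.02 between high fat diet and control livers, with exact permutation p from 0.5 to 0.8. Within the cluster on chromosome 8, miR-27a-3p minus miR-23a-3p was -1.06, -0.85 and -0.90 in metformin livers, -0.69, -0.76 and -0.77 in high fat diet livers, and -0.85, -0.65 and -0.70 in control livers. This pair was looked at after its values were seen and was not tested. The metformin pools were the lowest, with 1 metformin pool and 1 control pool both at -0.85.

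**Figure D4:**
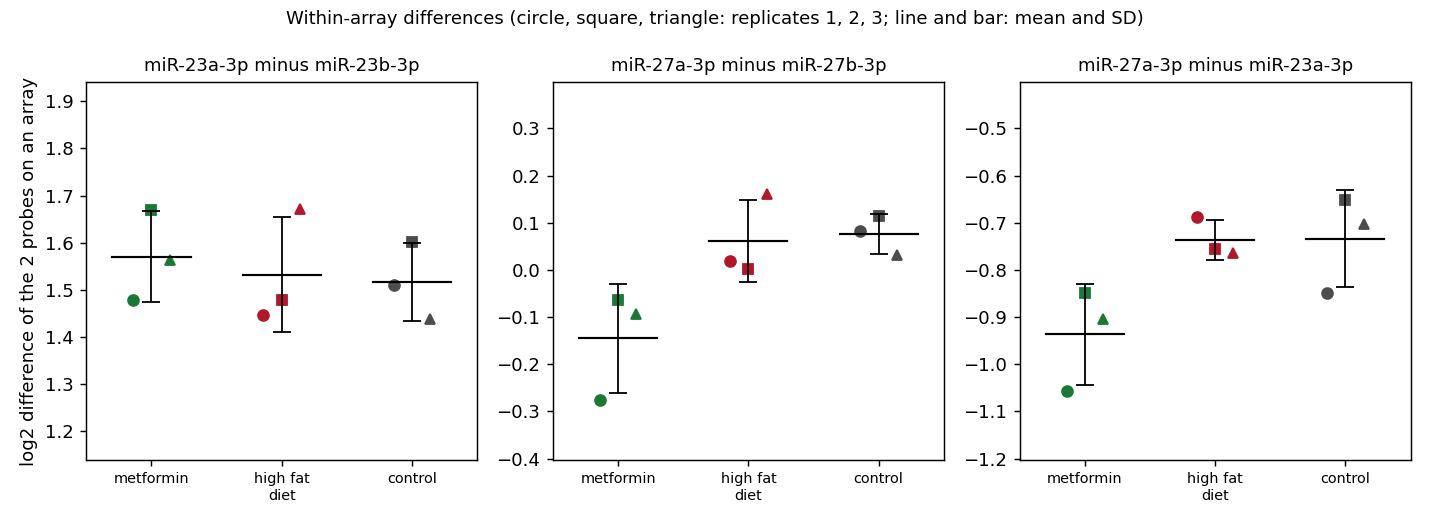
Difference of 2 probes on the same array (vertical axis, log2) for the pairs miR-23a-3p minus miR-23b-3p, miR-27a-3p minus miR-27b-3p and miR-27a-3p minus miR-23a-3p, in metformin, high fat diet and control livers; symbols are replicates 1, 2 and 3, line and bar the mean and SD (n = 3). For miR-27a-3p minus miR-27b-3p the metformin pools (-0.28 to -0.06) lie below the high fat diet and control pools (0.00 to 0.16).

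Each miRNA was read by 2 probes of 15 spots each, and the second probe gave a check within the same arrays. The second probe of miR-27a-3p, dimmer and detected on 8 of 9 arrays, stood at -4.10, -3.95 and -3.84 in metformin livers, -3.72, -3.70 and -3.61 in high fat diet livers, and -4.05, -3.86 and -3.68 in control livers. Metformin pools were again all below the high fat diet pools, with a log2 difference of -0.29, while 1 control pool reached into the high fat diet range. The second probe of miR-23b-3p was the brighter one, at intensities of 120 to 240 against 30.9 to 55.4 for the main probe. This second probe had 2 usable spots on high fat diet replicate 1 and was not used. It gave differences of -0.03 between metformin and high fat diet livers, 0.15 between metformin and control livers and 0.19 between high fat diet and control livers. For miR-24-3p the second probe gave -0.05, 0.10 and 0.15 in the same order of comparisons, and for miR-23a-3p it gave -0.15, -0.01 and 0.14. The second probe of miR-27b-3p counted as detected on 0 arrays. At most 42.9% of its used spots were well above background, on high fat diet replicate 1. The Pearson correlation between the 2 probes over the 9 arrays was 0.855 for miR-23a-3p, 0.728 for miR-23b-3p, 0.903 for miR-24-3p and 0.963 for miR-27a-3p, given as a description.

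The remaining products of the clusters were looked up as well. The passenger strands miR-23a-5p, miR-23b-5p, miR-24-1-5p, miR-24-2-5p, miR-27a-5p and miR-27b-5p, and the overlapping miR-3074-1-3p, miR-3074-2-3p and miR-3074-5p, were detected on 0 of 9 arrays. None was tested, and signal from the clusters was measured in the 3p strands only.

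Over the 9 arrays the members' levels correlated with one another, with Pearson's r from 0.307 (miR-27a-3p with miR-24-3p) to 0.854 (miR-23a-3p with miR-24-3p), where the median over all pairs of tested miRNAs was 0.0531. Around the group means, r was lowest for miR-27a-3p with miR-23b-3p, at 0.0872. Over all spots r was below 0 for miR-27b-3p with miR-23a-3p (-0.277), with miR-27a-3p (-0.0928) and with miR-23b-3p (-0.315). These are descriptions: the points share arrays, scaling and the group differences. The miRNAs outside the clusters whose levels followed a member most closely were miR-151-5p (r = 0.883) and miR-126a-3p (r = 0.837) for miR-23a-3p, and miR-25-3p (r = 0.910) and let-7i-5p (r = 0.802) for miR-27a-3p. For miR-24-3p they were miR-350-3p (r = 0.931) and miR-425-5p (r = 0.912). let-7f-5p (r = 0.816) and miR-16-5p (r = 0.771) followed miR-23b-3p, and miR-194-5p (r = 0.960) and miR-140-5p (r = 0.959) followed miR-27b-3p.

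Among 22 other miRNAs known for roles in lipid and cholesterol metabolism, 14 were tested, and few passed the test. Between high fat diet and control livers, 2 were called, both higher: miR-34a-5p, which represses Sirt1, by 1.37 (limma adjusted p = 0.000265), and miR-185-5p, which represses cholesterol genes, by 0.53 (limma adjusted p = 0.00827). These 2 of 14 stand against 14% of all tested miRNAs. Of the 14, 13 differences were above 0, against 54.5% of all, with a median of 0.14. Between metformin and high fat diet livers 0 were called, against 1.4% of all tested miRNAs. Of the differences 5 were above 0 and 9 below, where 62.9% of all were below, and the median was -0.07. Between metformin and control livers only miR-34a-5p was called, at 0.80 (limma adjusted p = 0.0143), against 1.4% of all. There 12 differences were above 0, against 49.7% of all, and the median was 0.11.

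Markers of liver cell types were read beside these levels, because less RNA per cell and fewer cells of a type cannot be told apart in whole liver. All 4 hepatocyte miRNAs were tested (miR-122-5p, miR-192-5p, miR-194-5p and miR-148a-3p), and 0 of 4 were called in any comparison. Of all tested miRNAs 14% were called between high fat diet and control livers, and 1.4% in each comparison with metformin livers. Against these shares, counts over so few markers say little. Their summed linear level, in units of the array's 75th percentile, was 107 to 120 in metformin livers, 98.0 to 110 in high fat diet livers and 104 to 117 in control livers. The single markers went different ways: between high fat diet and control livers miR-122-5p differed by -0.10, miR-192-5p by 0.08, miR-194-5p by 0.22 and miR-148a-3p by 0.37.

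The endothelial marker miR-126a-3p differed by -0.14 between metformin and high fat diet livers, by 0.04 between metformin and control livers and by 0.18 between high fat diet and control livers. In the same order of comparisons, miR-23b-3p differed by -0.13, 0.03 and 0.16, and miR-23a-3p by -0.09, 0.08 and 0.17. The likeness is thus not particular to 1 member, nor to the endothelial marker. In the same order, the hepatocyte marker miR-194-5p differed by -0.07, 0.15 and 0.22, and the mesenchymal marker miR-199a-3p by -0.11, 0.20 and 0.31. The hepatocyte marker miR-122-5p differed by 0.14, 0.04 and -0.10. miR-126a-5p was detected on 0 arrays. The endothelial sum was 2.69 to 3.28 in metformin livers, 3.13 to 3.19 in high fat diet livers and 2.62 to 2.93 in control livers. Of 5 stellate and mesenchymal markers 2 were tested. Between high fat diet and control livers 1 of the 2 was called, against 14% of all tested miRNAs: miR-199a-3p, higher by 0.31 (limma adjusted p = 0.0301). The sum of the 2 markers was 0.274 to 0.288 in metformin livers, 0.299 to 0.319 in high fat diet livers and 0.246 to 0.258 in control livers.

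Of 5 leukocyte markers 2 were tested, miR-223-3p and miR-142a-3p. Their sums were 0.242 to 0.277 in metformin livers, 0.262 to 0.323 in high fat diet livers and 0.254 to 0.311 in control livers. Between high fat diet and control livers they went opposite ways, miR-223-3p by 0.09 and miR-142a-3p by -0.13. miR-451a, from erythroid cells, was the only tested marker of 3. It differed by -1.01 between metformin and high fat diet livers, without passing the test, and stood at 0.260 to 0.303 in metformin livers, 0.504 to 0.695 in high fat diet livers and 0.337 to 0.915 in control livers. The part of any of these cell types in the levels of the cluster miRNAs was not tested.

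The authors' deposited values for the members were also read, on their log2 scale with a constant of unstated origin per array. There miR-27a-3p stood at 1.81, 2.42 and 2.01 in metformin livers, at 2.29, 2.43 and 2.11 in high fat diet livers, and at 2.15, 2.45 and 2.58 in control livers in the authors' deposited table. The groups overlapped. Its difference between metformin and high fat diet livers was -0.20 there (limma adjusted p = 0.952). In any comparison 0 of the 5 members were called. Of all 155 miRNAs tested there, 1 was called between metformin and high fat diet livers and 1 between metformin and control livers. Between high fat diet and control livers 0 were called.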

How the data were processed

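The 9 scanner files hold background-subtracted spot intensity, unscaled between arrays, from Agilent Feature Extraction 11.5.1.1 per the file headers (10.7 per the submitters' processing notes). The authors' deposited table holds log2 values: each equals the log2 total gene signal of the software plus 1 constant per array (-2.35 to -0.71), with 0 to 6 miRNAs per array departing by over 0.001. How its arrays were centred stays unknown, and its column medians were -5.67 to -4.03.

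Strips were found from both edges inward, 4 columns at a time: columns were excluded as long as 10% or more of bright probes' spots (80th percentile over an intensity of 100) fell under 50% of that percentile. A probe's value was the median of its other spots without non-uniformity marks. This dropped 425 probes that had fewer than 3 usable spots on some array. Each array was scaled to its 75th percentile of probes detected on all arrays (more than a share of 0.5 of spots well above background) and its values floored at 0.0406 and put on the log2 scale. The scaling intensity was 193 to 323, and no spot was saturated. The brightest of the remaining probes stood for a miRNA, which for miR-23b-3p was the dimmer of its 2 probes. Testing, restricted to miRNAs with every array of 1 or more groups detected, used limma 3.58.1 in R 4.3.3, in a model of 3 group means, with Benjamini-Hochberg adjustment over all 143 and 0.05 as the threshold. Precision is limited by the number of arrays, with a median SE of 0.12. Paralog differences were tested with exact permutation tests (scipy 1.17.1). The script was tested on simulated data. Alternatives covered all spots (as means, with low strip spots unevenly left out), background, scaling, filters, probes, blocks, left-out replicates and the deposited table.

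The members were selected by name and no measured value enters that rule, but this set, the lists, the tests and the leaving out of strips were chosen with earlier results of these data known. Named were the 5 members, other cluster products, the 2 most alike miRNAs per member, list members past the threshold and, beyond that rule and after their values were seen, further cell type markers. Sequences were matched by miRNA name to RefSeq's table.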

Additional observations from a re-analysis of the deposited data

How the results depend on the processing

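Under 24 other ways of processing and 1 chosen after seeing the data (probes with at least 2 usable spots), no member was called between metformin and high fat diet livers or between high fat diet and control livers. The direction changed in 47 of the 375 member values. Over all spots, metformin minus high fat diet was 0.34 for miR-23a-3p, 0.52 for miR-23b-3p, 0.24 for miR-24-3p, 0.18 for miR-27a-3p and 0.027 for miR-27b-3p. Metformin minus control was -0.036 for miR-24-3p and -0.15 for miR-27b-3p there. High fat diet minus control was -0.30 for miR-23b-3p, -0.27 for miR-24-3p, -0.28 for miR-27a-3p and -0.17 for miR-27b-3p. The paralog difference miR-23a-3p minus miR-23b-3p changed by -0.18 between metformin and high fat diet livers over all spots. That of miR-27a-3p minus miR-27b-3p changed by 0.15 and, between metformin and control livers, by 0.045.

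With the 75th percentile taken over all probes, which lay at an intensity of only 0.63 to 1.60, 98 of 143 miRNAs and 5 of 5 members were called between metformin and control livers (0.69 for miR-27a-3p), and the median of all miRNAs was 0.80. Metformin minus high fat diet was then 0.18 for miR-23a-3p, 0.15 for miR-23b-3p, 0.24 for miR-24-3p and 0.19 for miR-27b-3p, with a median of all of 0.21, and -0.017 for miR-27a-3p. Scaled to the median of detected probes, the first 4 were 0.053, 0.015, 0.11 and 0.058, and that of miR-27a-3p was -0.15. Under quantile normalization metformin minus high fat diet was 0.10 for miR-23a-3p, 0.031 for miR-24-3p and 0.070 for miR-27b-3p, against -0.12 for miR-27a-3p, and high fat diet minus control was -0.0033 for miR-23a-3p.

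With normexp background correction, run on median in place of mean spot signals, metformin minus control was -0.0023 for miR-23a-3p, -0.12 for miR-23b-3p and -0.013 for miR-27b-3p. High fat diet minus control was -0.11 for miR-23b-3p and -0.0073 for miR-27b-3p, and 0.0014 for miR-27a-3p and 0.042 for miR-23a-3p. In the authors' deposited table, metformin minus high fat diet was 0.054 for miR-23a-3p and 0.087 for miR-23b-3p (0.089 and 0.12 after centring). Metformin minus control was -0.067 for miR-23b-3p, -0.13 for miR-24-3p and -0.31 for miR-27b-3p (-0.0077 and -0.19 for the last 2 after centring). High fat diet minus control was -0.15 for miR-23b-3p, -0.064 for miR-24-3p, -0.12 for miR-27a-3p and -0.066 for miR-27b-3p (-0.070 for miR-23b-3p and -0.037 for miR-27a-3p after centring). With row as a block, and thus without control replicate 3, metformin minus control was 0.0065 for miR-27a-3p. The cause of these changes was not tested.

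Leaving out 1 replicate at a time, metformin minus control ran from -0.032 to 0.18 for miR-23b-3p, and the other 14 member values kept their direction, though not their size. Same-numbered replicates did not regularly deviate together (r from -0.24 to 0.43). These are correlations of single arrays and cannot tell whether the numbers pair samples. With a replicate block 0 members were called. In that fit miR-27a-3p again differed by -0.29 between metformin and high fat diet livers (limma adjusted p = 0.256). All miRNAs called were then 0, 3 and 22 in the 3 comparisons, against 2, 2 and 20 without the block. Over the alternatives that kept the scaling, the count between high fat diet and control livers ran from 0 to 40. It was 0 with the row as a block, a fit that also lacks control replicate 3. It was 40 when only control replicate 3 was left out. Without a detection filter, 1696 miRNAs at the floor on all arrays could not be fitted.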
